A study of Mus musculus with 3 samples.

Results

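The retinoic acid pathway genes described here were 9 genes picked by symbol, of 28692 genes counted. They were Stra6, Dhrs3, Aldh1a1, Aldh1a2, Aldh1a3, Cyp26b1, Rara, Rarb and Rarg, and all 9 had at least 1 unique molecular identifier (UMI, one counted RNA molecule). Whole lungs of 3 wild-type C57BL/6 mice, numbered 2, 3 and 4, were taken at postnatal day 14 (P14) after the pups had been kept in room air from day 1 to day 14. Each lung was dissociated into single cells and 1 droplet-based 3′ scRNA-Seq library was made per mouse. There was 1 condition and no treated group, so the comparisons below are between cell types of the same 3 animals.

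Retinoic acid is made inside cells from vitamin A. Retinol enters a cell through receptors such as STRA6, is oxidized to retinal, and is then oxidized irreversibly to retinoic acid by the retinal dehydrogenases ALDH1A1, ALDH1A2 and ALDH1A3. DHRS3 works against this flow by reducing retinal back to retinol, and CYP26B1 breaks retinoic acid down. Retinoic acid acts through the nuclear receptors RARα, RARβ and RARγ, which bind DNA as partners of the retinoid X receptors. In the postnatal lung the pathway is known for its part in the formation of alveolar septa, and fibroblasts rich in lipid droplets are known to store retinoids.

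The 3 libraries held 9644 cell barcodes, of which 7642 were kept (200 or more genes detected, mitochondrial share of UMIs no higher than 20%). The design text of the series speaks of 5677 cells, and the filter behind that number is not given in the sources used here. The kept cells of a library summed to between 20804836 and 23442355 UMIs. Between 1 and 4 barcodes were shared by any pair of libraries among the kept cells. Clustering gave 20 named types in 4 classes, with 1255 epithelial cells, 959 endothelial cells (EC), 1537 stromal cells and 3022 immune cells. It left 869 cells with neither a type nor a class. The immune class also held a cluster of 65 cells, led by Il1rl1 and Arg1, that had no named type and is in none of the levels by type. Type names, such as arterial EC, mean only that the cells of a cluster resembled that type in its markers. The members were kept out of the genes used for clustering. The club-like cluster (48 cells) also held 7 cells with more UMIs of ciliated cell markers. The Col14a1-type fibroblast cluster (100 cells) was a mixture. Its mean log2 fold was 4.36 over the Col14a1-type markers and 4.32 over the cartilage markers, and the cartilage genes Col2a1, Col10a1, Col11a1 and Acan were among its 10 leading genes beside the fibroblast genes Dcn, Lum and Serpinf1. The cluster held 16 cells with more UMIs of cartilage markers, so its results are given with and without these cells where they rest on them. Levels are given as CPM, the UMIs of a gene summed over the cells of one type and mouse, per 1000000 UMIs of those cells.

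Stra6, the retinol uptake receptor, was barely detected. It gave 8 UMIs in 7 of the 7642 cells. No type held more than 3 of them, in 529 Aplnr-type capillary EC, and no immune cell held any. No order of types can be read from 8 molecules. The annotated gene overlaps Ccdc33 on the other strand and Gm16131 on the same strand (chr9:58063788-58153996, GRCm38), so its few UMIs are also uncertain for that reason.

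Of the 3 retinal dehydrogenases, Aldh1a1 was highest in airway epithelium, next highest in Col13a1-type fibroblasts and lower in other stromal types. In club-like cells, the secretory cells of the airway, its level was 1325, 1613 and 1295 CPM in mice 2, 3 and 4 (1411 ± 176, mean ± SD, n = 3). In Col13a1-type fibroblasts it was 254, 347 and 227 CPM (276 ± 63.2, n = 3). These 2 types stood apart from each other and from all others in every mouse, since the next type, Col14a1-type fibroblasts, reached 30.1 ± 9.95 CPM (n = 3). In that type 30 of 100 cells had a UMI. Myofibroblast-like cells were at 13.5 ± 1.64 CPM and pericyte-like cells at 12.4 ± 4.79 CPM (n = 3 each). Club-like cells held 3487 of the 4458 Aldh1a1 UMIs, or 78.2%, although they were 48 cells. At least 1 UMI was seen in 46 of 48 club-like cells (95.8%) and in 125 of 209 Col13a1-type fibroblasts (59.8%; 95% exact binomial interval 52.8% to 66.5%). In B cell-like cells, which served as a measure of free RNA, 2 of 1783 cells (0.112%) had a UMI. The median cell had 38565 UMIs in the club-like cluster, 9732 in Col13a1-type fibroblasts and 3960 in B cell-like cells. With each cell thinned to 1000 UMIs, 69.3% of club-like cells and 22.1% of Col13a1-type fibroblasts (means of 3 mice) kept a UMI. Among the club-like cells, the 7 with more ciliated markers held 284 Aldh1a1 UMIs and the other 41 held 3203. Intervals and limits of this kind cover counting error only.

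The alveolar epithelium had little Aldh1a1 but did have its neighbor. Aldh1a7 (chr19:20692953-20727562, minus strand, GRCm38) is a close copy of Aldh1a1 (chr19:20492715-20643465, plus strand), so reads could in principle be split between the genes. In AT2-like cells, the surfactant-making cells of the alveolus, Aldh1a7 was at 112, 136 and 107 CPM, whereas Aldh1a1 was at 2.57 ± 1.02 CPM (n = 3). Aldh1a1 had 4.28 UMIs per Aldh1a7 UMI in club-like cells, 0.0227 in AT2-like cells and 91.3 in Col13a1-type fibroblasts. The ratio of the genes was therefore not the same in every type, and how shared reads were counted was not tested. Aldh1a7 was looked at after the member values were seen.

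Aldh1a2 was at a low level in 3 types, of which 2 were stromal and 1 was immune. In smooth muscle-like cells it was at 23.5, 24.9 and 42.5 CPM (30.3 ± 10.6, n = 3), from 126 UMIs in 55 of 290 cells. In Col14a1-type fibroblasts it was at 8.32, 12.6 and 33.7 CPM (18.2 ± 13.6, n = 3), from 24 UMIs in 13 of 100 cells. In dendritic-like cells it was at 10.1, 54.4 and 18.2 CPM (27.6 ± 23.6, n = 3), and here mouse 3 was high. The ranges of these 3 types overlapped, so their order was not resolved, but none overlapped the next type, neutrophil-like cells at 2.28 ± 2.07 CPM. The dendritic value rested on few cells. It came from 47 UMIs in 10 of 176 cells, with 28 UMIs in 1 cell. The 13 dendritic-like cells with more UMIs of Ccr7-type markers than of other dendritic markers held 37 of these UMIs in 4 cells. The other 163 cells were at 6.30, 9.98 and 2.72 CPM, which overlapped neutrophil-like cells (up to 4.04 CPM). Ccr7 marks dendritic cells that migrate to lymph nodes, and retinoic acid production through Aldh1a2 is known from such cells. None of 1783 B cell-like cells had an Aldh1a2 UMI.

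Aldh1a3 gave 80 UMIs in all, of which 70 were in stromal cells and 7 in unnamed clusters. In Col14a1-type fibroblasts it was at 10.4, 42.4 and 28.1 CPM (27.0 ± 16.0, n = 3), from 42 UMIs in 17 of 100 cells. In Col13a1-type fibroblasts it was at 1.63, 21.6 and 1.41 CPM, and mouse 3 alone was high because 20 of the 22 UMIs lay in 1 cell. None of 1041 AT2-like cells had a UMI, which allows up to 0.288% of cells with a UMI at this depth and sets no limit on cells that hold the RNA. Within Col14a1-type fibroblasts, 7 cells had UMIs of both Aldh1a2 and Aldh1a3. These were 53.8% of the 13 cells with Aldh1a2, while 11.5% of the cells without Aldh1a2 had Aldh1a3. The median depth was 14445 UMIs in the cells with Aldh1a2 and 13583 in those without. Other pairs of members were counted in each type too, and only this pair is given here. Its cells were pooled over mice, with 2, 4 and 7 of the 13 cells from mice 2, 3 and 4, and it was not tested. All 24 Aldh1a2 UMIs of the cluster were in the 84 cells with mostly Col14a1-type markers. Of the 42 Aldh1a3 UMIs, 32 were in 15 of these 84 cells. The other 10 were in 2 of the 16 cells with mostly cartilage markers, with 9 in 1 cell.

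**Figure D1:**
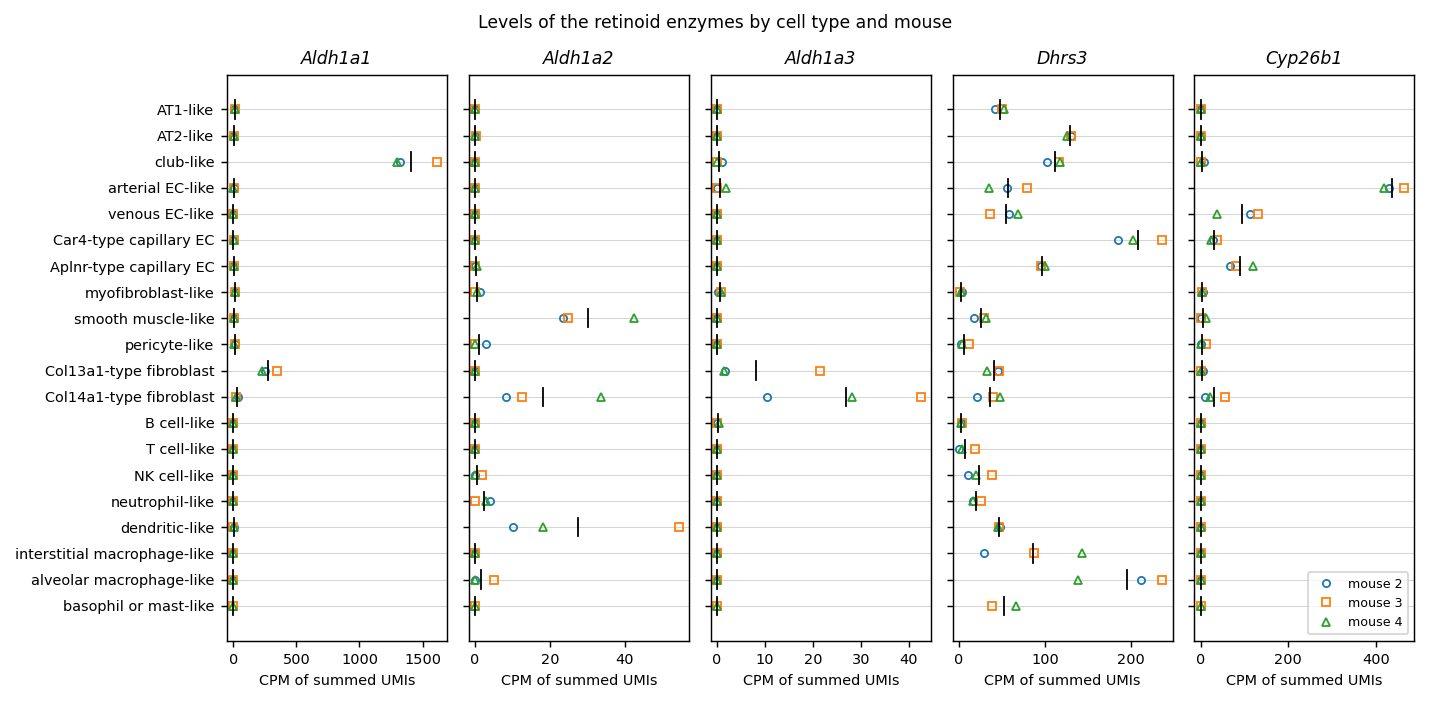
Levels of 5 retinoid enzymes in 20 cell types (CPM of summed UMIs on linear axes that differ between panels; symbols are mice 2, 3 and 4, vertical strokes the mean over mice with at least 10 cells). Aldh1a1 stands out in club-like cells (1295 to 1613 CPM), Cyp26b1 in arterial EC (418 to 464 CPM), and Dhrs3 is spread over many types.

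Dhrs3, the retinal reductase, was spread over epithelium, capillaries and macrophages. Its level was 185, 236 and 202 CPM in Car4-type capillary EC (208 ± 26.3, n = 3), the large capillary cells that line the gas exchange surface. It was 212, 235 and 138 CPM in alveolar macrophage-like cells (195 ± 50.8, n = 3), which overlapped the Car4-type range. AT2-like cells were at 129 ± 2.98 CPM, club-like cells at 112 ± 8.33 CPM and Aplnr-type capillary EC at 97.0 ± 2.74 CPM (n = 3 each). The ranges of these 3 types did not overlap. AT2-like cells held 2199 of the 4368 Dhrs3 UMIs, and 878 of 1041 of them (84.3%) had at least 1. Interstitial macrophage-like cells varied widely, at 29.6, 87.1 and 143 CPM. At the other end, B cell-like cells were at 2.85 ± 0.584 CPM and myofibroblast-like cells at 3.91, 0.911 and 2.24 CPM, with 22 UMIs in 804 myofibroblast-like cells. The 2 AT1-like clusters differed in depth and in Dhrs3, with a pooled 25.3 CPM in 129 cells at a median of 6208 UMIs and 67.5 CPM in 37 cells at 35994 UMIs. In the deeper cluster 8 of the 37 cells were marked as doublets and AT2 markers were the next list (mean log2 fold 0.82), against 1 of 129 cells in the other, and the part of this in the Dhrs3 level was not tested.

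Cyp26b1, an enzyme that breaks down retinoic acid, was found mainly in EC. Smooth muscle-like and pericyte-like cells had little, at 4.78 ± 6.94 and 4.10 ± 7.10 CPM (n = 3 each). Arterial EC had 429.9, 464 and 418 CPM (437 ± 24.0, n = 3), a range that no other type reached. Venous EC had 113, 131 and 37.9 CPM (93.7 ± 49.1, n = 3), where mouse 4 was low, and Aplnr-type capillary EC had 68.1, 80.6 and 120.3 CPM (89.7 ± 27.3, n = 3). Car4-type capillary EC had 28.6, 36.7 and 24.8 CPM. So among EC, the levels of arterial EC, of the venous and Aplnr-type pair, and of Car4-type EC formed 3 steps without overlap, and the venous and Aplnr-type ranges overlapped. The lower step was narrow, with 37.9 CPM in venous EC of mouse 4 and 36.7 CPM in Car4-type EC of mouse 3. Venous and Car4-type EC were not tested against each other. A UMI was seen in 108 of 153 arterial EC (70.6%), 160 of 529 Aplnr-type capillary EC (30.2%) and 14 of 169 Car4-type capillary EC (8.28%), against 2 of 1783 B cell-like cells (0.112%). At 1000 UMIs per cell the first 3 shares were 29.4% ± 2.31, 7.78% ± 1.87 and 1.35% ± 0.135 (SD, n = 3 mice). Outside EC, Col14a1-type fibroblasts reached 10.4, 56.6 and 22.4 CPM. Of their 49 UMIs, 25 were in 9 of the 16 cells with mostly cartilage markers (97.6 CPM pooled), and 19 were in 1 other cell. All 110 Cyp26b1 UMIs of the venous cluster were in the 103 cells with mostly venous markers, and the 5 cells with mostly lymphatic markers had 0.

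Set side by side per type, the dehydrogenases and Cyp26b1 were high in different cells. The 3 dehydrogenases summed to 1411 ± 176 CPM in club-like cells, where Cyp26b1 was at 2.37 ± 4.10 CPM. Another breakdown gene, Cyp2s1, was at 294 ± 92.6 CPM in these club-like cells. The dehydrogenases summed to 284 ± 74.5 CPM in Col13a1-type fibroblasts, where Cyp26b1 was at 2.46 ± 2.11 CPM. In arterial EC the sum was 3.44 ± 1.01 CPM, and in venous EC it was 0. In the mixed Col14a1-type cluster the sum was 75.3 ± 13.6 CPM and Cyp26b1 was at 29.8 ± 24.0 CPM (n = 3 for each). Without the 16 cells with mostly cartilage markers, Cyp26b1 was at 2.24, 48.3 and 0 CPM, from 24 UMIs in 3 of 84 cells, and the 16 cells had 0 Aldh1a2 UMIs. These are levels of RNA from different genes and do not measure enzyme activity.

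The receptors differed in breadth. Rara had UMIs in all 20 named types, as did Rarg, whereas Rarb did not. Rarb gave 297 UMIs in all, against 2573 of Rara and 2266 of Rarg, so its breadth is not told apart from its level. No type here is known to lack Rara, so no background of free RNA can be given for its low values, and B cell-like cells themselves were at 32.3 CPM. It was at 266, 229.5 and 149.7 CPM in interstitial macrophage-like cells (215 ± 59.6, n = 3), which had a median of 2050 UMIs per cell, and at 141, 157 and 169 CPM in neutrophil-like cells (156 ± 13.8, n = 3). The 2 ranges overlapped. Under a stricter filter on cells (500 or more genes, mitochondrial share no higher than 10%), interstitial macrophage-like cells were at 116 CPM, below the neutrophil-like cells. RARα is known to act in the maturation of neutrophils. Car4-type capillary EC were at 100.4 ± 10.3 CPM and dendritic-like cells at 87.1 ± 14.4 CPM, with overlapping ranges. AT2-like cells had the lowest mean, at 12.1 ± 0.324 CPM (n = 3), within the range of AT1-like cells (18.0 ± 6.29 CPM, with 10.7 CPM in mouse 2), and 176 of 1041 of them (16.9%) had a UMI.

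Rarb was narrow and low, at 297 UMIs in 234 cells. Venous EC were at 32.5, 24.3 and 25.3 CPM (27.4 ± 4.48, n = 3) and club-like cells at 21.3, 29.0 and 26.4 CPM (25.5 ± 3.91, n = 3), and these ranges overlapped. Myofibroblast-like cells followed at 12.4, 10.9 and 9.26 CPM (10.9 ± 1.57, n = 3), below both in every mouse. Of the 2 myofibroblast-like clusters, the one led by Aspn and Hhip had 70 Rarb UMIs in 451 cells (14.8 CPM pooled) and the one led by Pdgfra and Agt had 25 in 353 cells (6.11 CPM pooled). Smooth muscle markers were the next list in the Aspn cluster (mean log2 fold 1.47). In the Pdgfra and Agt cluster no list of another type was above -0.12. Both clusters count as 1 type in the comparisons below. No Rarb UMI was seen in 209 Col13a1-type fibroblasts, which allows up to 1.44% of cells with a UMI, in 153 arterial EC (up to 1.96%) or in 1783 B cell-like cells (up to 0.168%). These limits hold for cells with a UMI at this depth, not for cells that hold the RNA. All 33 UMIs of the venous cluster were in the 103 cells with mostly venous markers. Rarb overlaps Top2b on the other strand (chr14:16430839-16819156, minus strand, GRCm38), and whether the counting used strand is not given in the sources used here.

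Rarb is also known as a gene that retinoic acid itself switches on, through a direct repeat of the receptor half-site in its promoter, and the RefSeq promoter window holds that repeat. It is shown because the other members' windows hold none. The window is chr14:16575427-16575726 (GRCm38.p6, minus strand, 250 bases before to 50 after the transcript start), printed 5′ to 3′ with the 2 half-sites in capitals.

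Rarb promoter: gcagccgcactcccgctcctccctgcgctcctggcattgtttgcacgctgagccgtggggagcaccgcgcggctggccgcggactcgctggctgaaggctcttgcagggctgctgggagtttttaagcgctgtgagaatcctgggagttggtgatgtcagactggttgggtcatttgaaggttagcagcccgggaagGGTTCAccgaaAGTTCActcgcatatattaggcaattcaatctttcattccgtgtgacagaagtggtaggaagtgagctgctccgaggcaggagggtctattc

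The half-sites searched were AGGTCA and AGTTCA, and also GGTTCA as well as GGGTCA, with any 2 of them in the same direction and 1, 2 or 5 bases between them, on both strands. The Rarb repeat has a spacing of 5 and runs from base -53 to base -37 before the start. A spacing of 5 was found in 32 of 32851 RefSeq promoter windows (0.0974%), and any of the 3 spacings in 193 (0.588%). Both half-sites and the spacing of the known Rarb repeat were among those searched, so these shares do not test the Rarb match. Windows were found for 8 of the 9 members, 18 in all, and the Rarb window was the 1 with a repeat. A match is a run of letters and does not show that a receptor was bound there in these lungs, and a window without one says nothing about sites elsewhere.

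Rarg was highest in 2 unlike types. Car4-type capillary EC were at 138, 124 and 152 CPM (138 ± 14.0, n = 3), and Col14a1-type fibroblasts at 79.0, 116 and 101 CPM (98.8 ± 18.7, n = 3), with no overlap between them. Aplnr-type capillary EC (60.8 ± 6.83 CPM) and venous EC (53.0 ± 11.1 CPM) came next, with overlapping ranges (n = 3 each). In the Col14a1-type cluster, the 16 cells with mostly cartilage markers had 55 Rarg UMIs (215 CPM pooled) and the other 84 cells had 93 (76.4 CPM pooled). RARγ is known to act in growing cartilage. B cell-like cells had 1.52 ± 1.16 CPM, with a UMI in 10 of 1783 cells (0.561%).

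**Figure D2:**
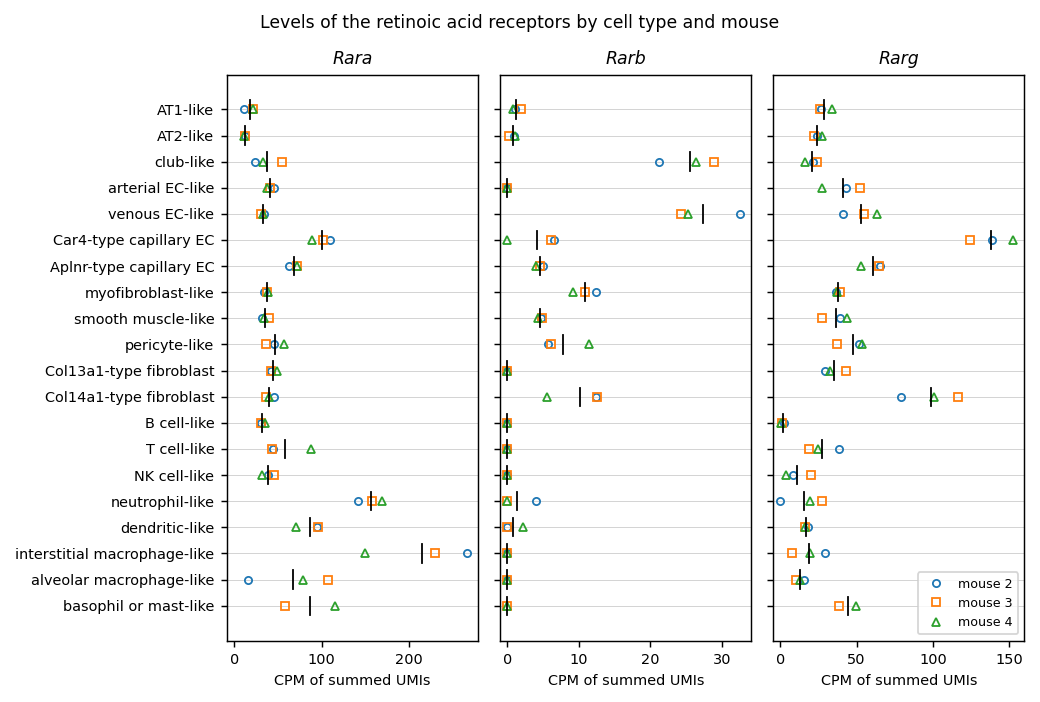
Levels of the 3 retinoic acid receptors in 20 cell types (CPM of summed UMIs on linear axes that differ between panels; symbols are mice 2, 3 and 4, vertical strokes the mean over mice with at least 10 cells). Rara and Rarg have UMIs in every type, Rarb is at 0 in several, and Rarg is highest in Car4-type capillary EC (124 to 152 CPM).

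The levels of the 4 classes were then compared with one fit over 12 sums, 1 per mouse and class, using the quasi-likelihood test of edgeR. P-values were adjusted over the 14214 genes tested (Benjamini-Hochberg). Of the 9 genes, 7 passed the filter on low counts, and Stra6 and Aldh1a3 did not. Values are log2 fold changes ± SE with the adjusted p (n = 3 mice per class). The classes are very unlike cells, so most genes differ: 67.1% of all genes tested passed an adjusted p of 0.05 between stromal and epithelial cells, 55.8% between stromal cells and EC, 76.6% between stromal and immune cells, 66.3% between epithelial cells and EC, 75.5% between epithelial and immune cells and 69.5% between EC and immune cells. Of the 7 members, 7, 6, 7, 5, 6 and 5 passed in these same comparisons, and with 7 genes such counts cannot be set apart from that background.

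Aldh1a1 was higher in epithelial than in stromal cells (-2.10 ± 0.21 for stromal against epithelial, adjusted p = 4.51e-07) and higher in stromal cells than in EC (4.39 ± 0.42, adjusted p = 3.55e-07). The levels were 159, 189 and 141 CPM in epithelial cells and 38.8, 73.4 and 35.4 CPM in stromal cells, with no overlap. The direction rested on the club-like cells, which gave 3487 of the 3560 epithelial UMIs. Without these 48 cells Aldh1a1 was higher in stromal than in epithelial cells (3.34, adjusted p = 3.11e-07), and its excess in epithelial cells over EC (6.49 with the club-like cells) did not pass (1.05, adjusted p = 0.141). The difference between stromal and epithelial cells also did not pass under the stricter filter on cells (-0.60, adjusted p = 0.181). Between EC and immune cells Aldh1a1 did not pass (2.23 ± 1.12, adjusted p = 0.0888), but it did with the mouse as a replicate block (2.34, adjusted p = 0.0304), with DESeq2 (2.31, adjusted p = 0.00269) and with no filter on low counts (2.23, adjusted p = 0.0457). Aldh1a2 was higher in stromal than in immune cells (1.23 ± 0.38, adjusted p = 0.00876), with 157 and 51 UMIs. That call was lost without mouse 2 (adjusted p = 0.0513), without mouse 4 (adjusted p = 0.171) and under the stricter filter (adjusted p = 0.167). Epithelial cells and EC each gave 1 Aldh1a2 UMI, so the stromal excess is given as the ratio of summed levels, 201 over epithelial cells (95% counting interval 35.5 to 7988) and 86.6 over EC (15.3 to 3441). Aldh1a3, which was not tested, gave 1 UMI in each class other than stromal cells.

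Cyp26b1 was higher in EC than in each other class. The difference was 8.51 ± 0.37 against immune cells (adjusted p = 2.28e-11), and for the other 2 classes against EC it was -4.24 ± 0.21 in stromal cells (adjusted p = 2.09e-10) and -7.21 ± 0.30 in epithelial cells (adjusted p = 1.5e-11). EC had 120.1, 144 and 139 CPM and held 88.4% of the Cyp26b1 UMIs. Dhrs3 was lower in stromal cells than in epithelial cells (-3.24 ± 0.12, adjusted p = 5.03e-12), EC (-2.57 ± 0.13, adjusted p = 1.81e-10) and immune cells (-0.55 ± 0.15, adjusted p = 0.00351). Its difference between epithelial cells and EC was 0.67 ± 0.11 (adjusted p = 4.69e-05) but 0.18 (adjusted p = 0.146) when the normalization between sums was left out. The CPM themselves were 117 ± 3.97 and 104 ± 8.09.

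Among the receptors, Rarg was higher in EC than in stromal (-0.55 ± 0.10 for stromal against EC, adjusted p = 0.000159), epithelial (-0.98 ± 0.10 for epithelial against EC, adjusted p = 3.89e-07) and immune cells (2.39 ± 0.12, adjusted p = 9.38e-11). Rara was lower in epithelial cells than in stromal cells (0.94 ± 0.09 for stromal against epithelial, adjusted p = 3.98e-07), EC (-1.58 ± 0.10, adjusted p = 9.57e-10) and immune cells (-1.70 ± 0.09, adjusted p = 2.35e-10). Between EC and immune cells Rara did not pass (-0.12 ± 0.09, adjusted p = 0.249), at 64.9 ± 2.37 and 59.3 ± 2.04 CPM. Rarb gave 136 UMIs in stromal cells, 80 in epithelial cells, 64 in EC and 2 in immune cells. Its level over immune cells was 54.2 times in stromal cells (95% counting interval 14.7 to 452) and 46.3 times in EC (12.3 to 390.3). Rarb was higher in stromal than in epithelial cells (0.75 ± 0.24, adjusted p = 0.014), a call that was lost without mouse 2 (adjusted p = 0.125) or mouse 4 (adjusted p = 0.0524). Of the 80 epithelial UMIs of Rarb, 63 were in club-like cells. Without those cells the difference was 2.77 (adjusted p = 2.93e-06), Rarb was lower in epithelial cells than in EC (-2.43, adjusted p = 3.08e-05), and its excess in epithelial over immune cells went from 4.67 to 2.63 (adjusted p = 0.00536). Leaving out club-like cells was chosen after seeing the data.

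Fold changes between classes depend on how the sums are scaled. With library sizes alone in place of edgeR's TMM factors, the median shift over all genes ranged from -0.485 (epithelial against endothelial) to 0.369 (stromal against epithelial). The share of higher genes among all called then went from 53.5% to 71.5% for stromal against epithelial, from 49.1% to 29.2% for epithelial against endothelial and from 49.0% to 60.3% for endothelial against immune. No called member changed direction. Rarb, which did not pass between epithelial cells and EC (-0.40 ± 0.27, adjusted p = 0.201), passed without the TMM factors (-0.89, adjusted p = 0.00808), and the sign of Rara between EC and immune cells changed (0.13, adjusted p = 0.248).

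**Figure D3:**
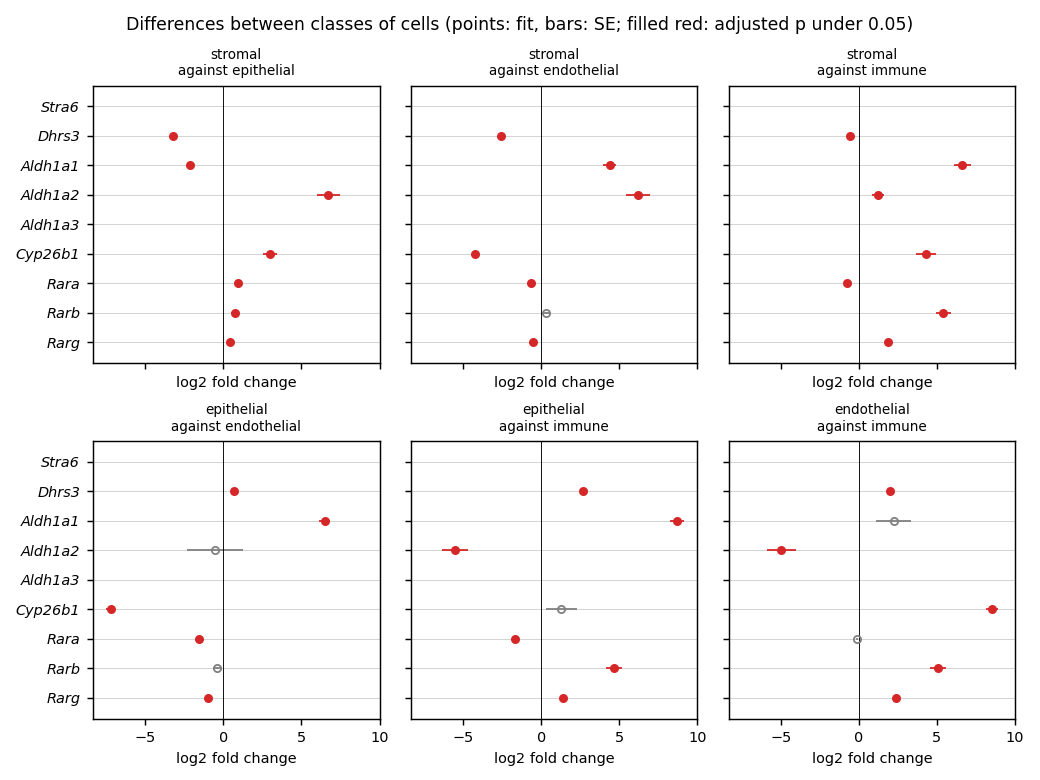
Differences of the members between 4 classes of cells (x, log2 fold change of the first class against the second; points are the edgeR estimate, bars 1 SE, filled red where the adjusted p is under 0.05, grey where it is not, diamonds where 1 class had no UMI). Cyp26b1 lies far toward EC in its 3 comparisons, and Aldh1a2 and Dhrs3 lie on opposite sides of 0 between stromal and epithelial cells.

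Types within a class were compared in a second fit over 59 sums of 20 types, with 12337 genes tested and 8 of the 9 members among them (Stra6 was not). Whether the counts of members called differ from the shares of all genes given beside them was not tested. Between Col14a1-type and Col13a1-type fibroblasts, 5 of 8 members passed, where 21.2% of all genes did. Aldh1a1 was lower in the Col14a1-type cells (-3.16 ± 0.25, adjusted p = 1.49e-13) and Rarg was higher (1.53 ± 0.23, adjusted p = 4.39e-07). Rarb and Aldh1a2 had no UMI in Col13a1-type fibroblasts, so their levels in Col14a1-type cells were at least 8.14-fold and 12.2-fold higher, against a floor of 3 counts over the group. The call for Aldh1a2 was lost with DESeq2 (adjusted p = 0.107). Cyp26b1 was higher (3.86 ± 0.88, adjusted p = 0.000808) but not without mouse 3 (2.43, adjusted p = 0.256). Without the 16 cells with mostly cartilage markers, an alternative chosen after seeing the data, Cyp26b1 was 3.15 (adjusted p = 0.0406) and Rarg 1.18 (adjusted p = 0.000261), and 5 members passed. That Cyp26b1 value rested on 24 UMIs in 3 of the other 84 cells, with 19 UMIs in 1 cell and 23 in mouse 3. Aldh1a3 did not pass (1.60 ± 0.67, adjusted p = 0.0954), but it did with the mouse as a replicate block (1.74, adjusted p = 0.0408). It also passed without mouse 3 (3.61, adjusted p = 0.0429) and without cells marked as doublets (4.60, adjusted p = 8.92e-05). The mean of Aldh1a3 was no higher than 0.693 CPM in any other type. It therefore passed the filter on low counts through the fibroblasts compared here, and these calls are not independent of that filter.

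Myofibroblast-like cells differed from Col13a1-type fibroblasts in 4 of 8 members, where 29.6% of all genes passed. Aldh1a1 was lower in myofibroblast-like cells (-4.48 ± 0.20, adjusted p = 4.16e-22), as was Dhrs3 (-4.10 ± 0.36, adjusted p = 5.47e-14). Rarb was at least 8.07-fold higher, with 95 UMIs against 0. Rarg did not pass (-0.03 ± 0.22, adjusted p = 0.968), nor did Rara (-0.37 ± 0.20, adjusted p = 0.183). The lower Aldh1a3 (-3.63 ± 0.86, adjusted p = 0.00159) rested on the 1 high cell of mouse 3 and was lost without that mouse (-1.24, adjusted p = 0.687), without doublets (adjusted p = 0.783) and with DESeq2 (adjusted p = 0.847). Col13a1-type fibroblasts had 28 of their 209 cells marked as doublets.

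In the capillaries, 3 of 8 members differed between Car4-type and Aplnr-type EC, where 8.73% of all genes did. Aldh1a3, 1 of the 8, had no UMI in either type. Dhrs3 (1.06 ± 0.18, adjusted p = 1.84e-05) and Rarg (1.16 ± 0.18, adjusted p = 2.03e-06) were higher in Car4-type EC. Cyp26b1 was lower (-1.63 ± 0.40, adjusted p = 0.00521), though not without mouse 4 (-1.21, adjusted p = 0.107) or with DESeq2 (adjusted p = 0.451). For this comparison the share of higher genes among all called was 48.5% with edgeR and 58.8% with DESeq2. Rara did not pass (0.51 ± 0.18, adjusted p = 0.0691), but it did with the mouse as a replicate block (0.51, adjusted p = 0.046), with DESeq2 (0.57, adjusted p = 0.00352) and without doublets (0.56, adjusted p = 0.0416).

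Between arterial and Aplnr-type capillary EC, 4 of 8 members passed, where 16.6% of all genes did. Cyp26b1 was higher in arterial EC (2.30 ± 0.25, adjusted p = 1.07e-09), though DESeq2 gave a similar size that did not pass (2.37, adjusted p = 0.104). The other 3 calls were lost with some mouse left out. Dhrs3 was lower in arterial EC (-0.76 ± 0.24, adjusted p = 0.0161) but not without mouse 2 (adjusted p = 0.0561) or mouse 4 (adjusted p = 0.378). Rara was lower (-0.70 ± 0.22, adjusted p = 0.0203) but not without mouse 3 (adjusted p = 0.125) or mouse 4 (adjusted p = 0.246). Rarb had 0 UMIs in arterial EC and 25 in Aplnr-type EC, at least 2.16-fold lower (adjusted p = 0.0113), a call that was lost with any 1 mouse left out (adjusted p = 0.0848 to 0.14) and under the stricter filter (adjusted p = 0.0667).

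AT1-like and AT2-like cells differed in 2 of 8 members, where 33.2% of all genes passed. Dhrs3 was lower in AT1-like cells (-1.64 ± 0.19, adjusted p = 4.18e-10). Aldh1a1 was higher (1.68 ± 0.45, adjusted p = 0.00272), at 10.3 ± 2.43 against 2.57 ± 1.02 CPM, and that call was lost without mouse 4 (adjusted p = 0.0555). Alveolar and interstitial macrophage-like cells also differed in 2 of 8 members, where 15.1% of all genes passed. Of the 6 that did not pass, 4 had no UMI in either type (Aldh1a1, Aldh1a3, Cyp26b1 and Rarb). Dhrs3 was higher in alveolar macrophage-like cells (1.34 ± 0.35, adjusted p = 0.00403) and Rara lower (-1.24 ± 0.30, adjusted p = 0.0022). Neither call held without mouse 2 (adjusted p = 0.0964 and 0.197), and the Dhrs3 call was also lost without mouse 3 (adjusted p = 0.126). The median mitochondrial share was 12.6% in interstitial and 12.8% in alveolar macrophage-like cells, above the 10% limit of the stricter filter. This pair was not compared under that filter, where the Rara level of interstitial macrophage-like cells was lower, as given above. With library sizes alone, the median shift over all genes was 0.235 for AT1-like against AT2-like cells and -0.265 for the macrophages, and the share of higher genes among all called went from 51.5% to 71.5% for AT1-like against AT2-like cells and from 47.2% to 29.3% for the macrophages, and no called member changed direction.

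**Figure D4:**
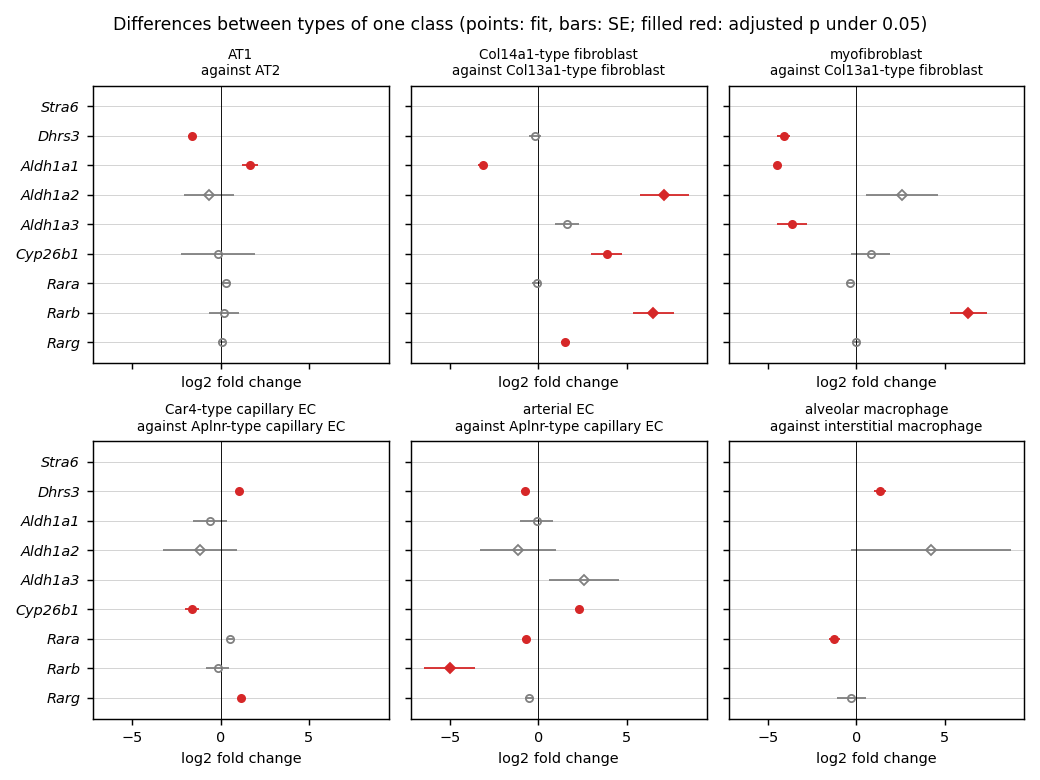
Differences of the members between 6 pairs of cell types (x, log2 fold change of the first type against the second; points are the edgeR estimate, bars 1 SE, filled red where the adjusted p is under 0.05, grey where it is not, diamonds where 1 type had no UMI, so that the size depends on the model). A member with no UMI in either type has no point. Aldh1a1 lies toward Col13a1-type fibroblasts in both comparisons with them, and Cyp26b1 lies toward arterial EC.

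Genes with the most similar order of levels were looked up across the 19 types with at least 10 cells in every mouse. The measure was Pearson's r of log2(CPM + 1), with the lowest r of the 3 mice ranking 13671 genes; it describes levels over types and carries no test, and the types of a mouse share its library. For Cyp26b1 the closest were Jam2 (0.87), a junction protein of EC, Fmo1 (0.86) and Ces2g (0.86). For Aldh1a3 they were C1qtnf3 (0.95), Gabra4 (0.94) and Col9a2 (0.91), a cartilage collagen. The mixed Col14a1-type cluster, where Aldh1a3 was highest, counted as 1 type here. Its fibroblasts and its cells with cartilage markers are therefore not told apart by this measure. Aldh1a1 was closest to Kcnk2 (0.83), RP23-54G8.4 (0.81) and Selenbp1 (0.81), and Aldh1a2 to Nap1l5 (0.63), Susd5 (0.61) and Cldn1 (0.61). Rarg had Mid2 (0.74), Nfic (0.73) and Nrp1 (0.73), Rara had Ier5 (0.70) and Gpr141 (0.70), and Rarb had Cmbl (0.68), Tshz2 (0.67) and Bok (0.66). Dhrs3 had F11r (0.76), a tight junction protein, Pik3cb (0.67) and Tmbim6 (0.63).

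The clusters without a class held few member UMIs, with the largest number for Dhrs3, 183 of 4368. A cluster of 31 cells led by the platelet genes Pf4 and Ppbp had 32 of these in 6 cells, a pooled 374 CPM at a median of 711 UMIs per cell. A cluster of 453 shallow cells led by Hpgd and Sox7, with a median of 843 UMIs, had 64 Rarg UMIs (142 CPM pooled) and 47 Rara UMIs (104 CPM pooled). The 65 immune cells without a type, at a median of 6612 UMIs, held 35 of the 153 Rarg UMIs of the immune class. They also held 33 Rara UMIs and 5 Dhrs3 UMIs.

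The other genes of the pathway came from a list of 52, of which 35 passed the filter on low counts in the fit of the classes. Between stromal and epithelial cells 25 passed (71.4%, against 67.1% of all genes), 18 higher and 7 lower in stromal cells. Between stromal cells and EC 22 passed (62.9%, against 55.8%), 16 higher and 6 lower in stromal cells, and between epithelial cells and EC 22 passed (62.9%, against 66.3%), 9 higher and 13 lower in epithelial cells. Against immune cells, 32 passed in stromal cells (91.4%, against 76.6%; 21 higher, 11 lower), 24 in epithelial cells (68.6%, against 75.5%; 15 higher, 9 lower) and 23 in EC (65.7%, against 69.5%; 12 higher, 11 lower). Whether these shares differ from the background was not tested.

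By role, the binding and transport genes named here had their highest means in fibroblasts and macrophages. Crabp1, which binds retinoic acid, was at 197 ± 35.9 CPM in Col13a1-type fibroblasts, the type with the second highest Aldh1a1. Rbp4, the retinol carrier of plasma, was at 281 ± 47.3 CPM in Col14a1-type fibroblasts, and Fabp5, a lipid carrier, at 1449 ± 405 CPM in alveolar macrophage-like cells. The Fabp5 range of these cells overlapped that of AT2-like cells (1223 ± 142 CPM). Among the oxidizing and reducing enzymes, Adh1, an alcohol dehydrogenase, was at 596 ± 44.3 CPM in Col13a1-type fibroblasts, while Rdh12 (283 ± 42.8 CPM) and Dhrs9 (108 ± 41.9 CPM) were highest in neutrophil-like cells, where Rara was also high. By the fit of the types, Crabp1, Adh1 and Lrat were lower in Col14a1-type fibroblasts and in myofibroblast-like cells than in Col13a1-type fibroblasts (n = 3 for each level). Of 33 other pathway genes tested in that fit, 9 passed between Col14a1-type and Col13a1-type cells (27.3%, against 21.2% of all genes). Of these, 5 were lower in Col14a1-type cells and 4 higher, among them Rbp4 and Lpl. Between myofibroblast-like and Col13a1-type cells 14 passed (42.4%, against 29.6%), 4 higher and 10 lower in myofibroblast-like cells.

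Of the storage genes, Lrat, which esterifies retinol, was at 42.8 ± 10.2 CPM in Col13a1-type fibroblasts, Dgat1 at 478 ± 38.7 CPM in neutrophil-like cells and Lpl, a lipoprotein lipase, at 924 ± 89.7 CPM in alveolar macrophage-like cells. Beside Cyp26b1, the breakdown genes gave 294 ± 92.6 CPM of Cyp2s1 in club-like cells, 7 UMIs of Cyp26a1 and 0 of Cyp26c1 in all kept cells. The corepressor Ncor1 was highest in basophil or mast-like cells (736 ± 128 CPM, n = 2 mice with enough cells), the coregulator Nrip1 in arterial EC (229 ± 34.3 CPM) and the coactivator Ncoa1 in myofibroblast-like cells (154 ± 15.4 CPM). Of genes known as targets, Rarres2 was highest in pericyte-like cells (853 ± 64.5 CPM), Tgm2 in neutrophil-like cells (853 ± 180 CPM) and Hoxa5 in arterial EC (366 ± 50.0 CPM). The Hoxa5 range of arterial EC overlapped those of Aplnr-type capillary EC (363 ± 29.5 CPM) and venous EC (309 ± 33.4 CPM). The Nrip1 range of arterial EC overlapped those of T cell-like cells (205 ± 57.6 CPM) and venous EC (167 ± 32.8 CPM). The levels have n = 3 unless given otherwise, and which type was highest was not tested.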

How the data were processed

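Whole-lung single-cell libraries of 3 mice were analysed from the deposited UMI counts per gene and barcode. Per the labels and the submitters' processing notes, the authors made these counts with Cell Ranger 3.0.2 on mm10, and the annotation used is not given in the sources used here. Cells with under 200 genes or over 20% mitochondrial UMIs were left out. Kept libraries held 20804836 to 23442355 UMIs. Clusters were made with Seurat 5.3.0 (SCTransform, 3000 variable genes, 30 components, resolution 0.8) and named from marker lists, with thresholds on the markers set after the clusters were seen. Doublets were marked with Scrublet in Scanpy 1.11.5 at 0.8% per 1000 cells, since its automatic threshold marked under 0.5%, and were kept in the main values. Cells are not replicates, so UMIs were summed per mouse and class or type (at least 10 cells) and tested with edgeR 4.0.16 (TMM, filterByExpr, quasi-likelihood), with Benjamini-Hochberg adjustment and a threshold of 0.05. SE were taken from the F statistic. DESeq2 1.42.0, no TMM, no filter, stricter cells, other clusterings and leaving out each mouse were alternatives, and leaving out club-like cells or cells with mostly cartilage markers was added after seeing the data. Sums of a mouse come from the same animal, so the mouse pairs them. Deviations of same-mouse sums correlated at a median of 0.111 (0.0467 to 0.177, 18 pairs) between classes. A permutation test of 3 against 3 mice cannot go below 0.1. Members and lists were chosen with earlier results of these data known. Named genes were all members, the 3 most similar genes of each, and in each other list the 2 to 4 genes with the highest mean in any type, and some genes that this rule names are not reported here. The edgeR test between classes was run on simulated counts with known changes.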

Additional observations from a re-analysis of the deposited data

Results flagged for a closer look

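The filter on cells left out 2002 of 9644 barcodes with 4866195 UMIs, and 7 of the 9 members had UMIs in these barcodes, which no comparison used. Dhrs3 had 353 UMIs there (72.5 CPM, against 65.6 CPM in the kept cells), Aldh1a1 had 428 (88.0 against 67.0 CPM) and Rara had 222 (45.6 against 38.7 CPM). Rarg had 57 UMIs (11.7 against 34.1 CPM) and Cyp26b1 had 22 (4.52 against 21.9 CPM). Aldh1a2 had 19 UMIs (3.90 against 3.22 CPM) and Rarb had 14 (2.88 against 4.46 CPM). Stra6 and Aldh1a3 had 0. The barcodes left out were not assigned to types, and their part in the levels was not tested.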

How the results depend on the processing

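Of the 56 differences called for members, 1 of 742 values under the alternatives changed sign and 28 lost the call. The sign changed for Aldh1a1 between stromal and epithelial cells without club-like cells (3.34). Of 34 differences tested and not called, 6 had no UMI in either type and are not compared further, and for the other 28, 11 values gained a call and 33 changed sign. Each lost call of a member is given in the report beside its result, and the cause of the losses was not tested. The mouse as a replicate block added 1 call in each of 3 comparisons, with 6 members called between EC and immune cells, 6 between Col14a1-type and Col13a1-type fibroblasts and 4 between Car4-type and Aplnr-type capillary EC, and it lost no call. With 1 mouse left out, the members called ranged from 1 to 2 between AT1-like and AT2-like cells, from 1 to 2 between arterial and Aplnr-type capillary EC and from 0 to 2 between alveolar and interstitial macrophage-like cells. The other counts of calls stayed within 1.5 times in all 185 values from the other alternatives. The share of all genes called was tallied for the main fit only. Counts under the alternatives are therefore not a result about the members. Without TMM, the sign changed for Rara between EC and immune cells (0.13) and for Rarg between myofibroblast-like cells and Col13a1-type fibroblasts (0.075). For Rarg it also changed with no filter on low counts (0.0097) and with the members kept among the variable genes (0.035), and with 1 mouse left out it ranged from -0.11 to 0.19. At a clustering resolution of 1.2, Rarb in venous EC was at 22.4 CPM, below club-like cells. Few cells limit the club-like and macrophage-like values, and low counts limit Stra6, Aldh1a2, Aldh1a3 and Rarb.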
